A study of Mus musculus with 6 samples.

Results

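The genes described here are mouse opposite-strand genes, whose symbol is that of a protein-coding gene followed by os. They were found by symbol: 319 symbols of the deposited table ended in os or os and a single digit, and for 294 of them the remaining stem was itself a symbol in the table. Leaving out 5 that are not analysed here gave 289 os genes out of 57010 genes in the table. They pair with 248 stem genes, all annotated as protein-coding, and 30 stem genes carry more than 1 os gene. By annotation 251 os genes are of the antisense class, 13 are processed transcripts, 8 are intergenic noncoding RNAs and 3 are RNAs of bidirectional promoters. The others are 11 protein-coding genes, 2 genes of the annotation class TEC and 1 transcribed pseudogene, so not every os gene is noncoding.

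An opposite-strand transcript is read from the complementary DNA strand of another gene. Where the exons of both overlap, the RNAs carry complementary stretches. Such transcripts are known to act on the partner in several ways, through transcription across its promoter, through chromatin at a shared promoter, or by pairing with its mRNA. An antisense RNA of Uchl1 that raises translation of the Uchl1 mRNA, and an antisense RNA of Zeb2 that covers a splice site in its leader, are textbook cases. Many other os genes have no known function and were named only for their position.

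The libraries came from 3 wild-type mouse embryonic stem cell samples (the WT ESC line, ESC below) and 3 wild-type primary cortical neuron samples, taken from the cortex on embryonic day 16.5 and cultured for 7 days (neuron below). They served as pluripotent and neuronal reference states in work on the gene Rai1. The labels name no perturbation. Oligo-dT priming selected RNA with a poly(A) tail, and fragments were read from both ends. The labels give a batch that equals the group, so batch and group cannot be told apart, and the library names of neuron replicates 2 and 3 hold the unexplained word empty. They do not say whether replicates came from separate cultures, so p-values measure the spread between these samples, which may be technical. The counting tool's strand setting is not given in the sources used here. Whether reads were counted on the strand of their transcript was therefore not tested. If they were counted on the opposite strand, a count listed for an os gene is of RNA from the stem gene's strand, and the other way round. Every ranking of os over stem, every share and every direction of an os gene below could then belong to the other strand. If strand was not used, reads in shared exons cannot be told apart. Each value below is the count listed under that gene's name in the table. In these bulk samples fewer cells of a type and less RNA per cell cannot be told apart either.

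The antisense relation can be read in the sequences. Of the 160 os genes whose exons share bases with stem exons, 147 matched a stem transcript of GENCODE release M21 in antisense over at least 15 bases, with a median longest stretch of 164 bases. That stretch lay mainly in the stem's coding sequence in 81 pairs, in its 5′ untranslated region in 50 and in its 3′ untranslated region in 16. Pairs that start head to head matched mostly in the 5′ untranslated region (39 pairs, against 18 in coding sequence), and pairs that end tail to tail in coding sequence (15) or the 3′ untranslated region (10). In the 6 os RNAs shown next, 50 bases run 5′ to 3′ across 1 end of the stretch, and the capitals mark 30 bases that are exactly antisense to the stem mRNA. They were chosen because their counts carry the results below, and they cover each region of a stem mRNA: Rbm3os and Zeb2os face a 5′ untranslated region, Scpep1os, Galnt6os and Plxna4os3 coding sequence, and Srrm4os a 3′ untranslated region.
Rbm3os: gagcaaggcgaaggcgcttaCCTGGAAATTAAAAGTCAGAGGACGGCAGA
Zeb2os: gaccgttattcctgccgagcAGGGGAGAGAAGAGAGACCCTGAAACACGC
Scpep1os: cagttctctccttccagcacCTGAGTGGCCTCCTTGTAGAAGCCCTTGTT
Galnt6os: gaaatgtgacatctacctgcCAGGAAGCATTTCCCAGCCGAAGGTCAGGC
Plxna4os3: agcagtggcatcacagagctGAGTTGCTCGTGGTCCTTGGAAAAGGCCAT
Srrm4os: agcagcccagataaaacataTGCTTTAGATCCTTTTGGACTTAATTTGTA
The longest antisense stretch was 96 bases in Rbm3os, 183 in Zeb2os, 97 in Scpep1os, 192 in Galnt6os, 113 in Plxna4os3 and 69 in Srrm4os. These RNAs therefore face only part of the stem mRNA.

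Depth limits what can be seen. Total counts were 1368303 to 1775055 in ESC and 513425 to 624792 in neuron libraries, so that 3 counts correspond to 2.26 to 2.90 CPM (read counts scaled by the normalised library total) in ESC and 3.92 to 4.81 CPM in neurons. The labelled cell types were checked with marker genes as the table counts them. The 8 stem cell markers summed to 147 to 221 CPM in ESC and 1.31 to 4.81 CPM in neurons, where Pou5f1, Nanog, Zfp42, Esrrb, Dppa5a and Utf1 were at 0. The 8 neuron markers summed to 29.0 to 35.4 CPM in ESC, with Rbfox3, Snap25 and Neurod6 at 0, and to 52.2 to 62.6 CPM in neurons. Other neuron markers were no higher in neuron libraries: Stmn2 had 27, 25 and 16 counts in ESC, then 8, 1 and 3 in neurons, Tubb3 10, 4 and 8, then 4, 2 and 1, and Syp 9, 5 and 7, then 5, 0 and 6. Of the stem cell markers only Pou5f1 shares exons with a gene on the opposite strand, and of the neuron markers Map2, Syp and Neurod6. The genes opposite to them held 13511 to 14161 CPM in ESC for Pou5f1, and together 2763 to 2931 CPM in neurons for the neuron markers. Pou5f1 had 51, 29 and 43 counts in ESC, and Gm19553 opposite to it 18559, 13967 and 15649. Map2 had 10, 13 and 13 counts in neurons, and Gm10558 opposite to it 759, 741 and 579. Gm14703, opposite Syp, had 1355, 1218 and 1142 counts in neurons. Neurod6 was near even there, with 7, 5 and 7 counts against 3, 8 and 5 opposite to it. Pou5f1, Map2 and Syp were thus low and the genes facing them high in this table, a pattern that may touch every os and stem pair below. The 4 astrocyte markers summed to 2.71 to 5.27 CPM in ESC and 11.2 to 31.3 CPM in neurons, the 4 oligodendrocyte lineage markers to 22.6 to 28.1 and 17.9 to 39.2 CPM. The 4 microglia markers summed to 201 to 266 CPM in ESC and 128 to 142 CPM in neurons, with Tmem119 at 0 throughout. Most of this was Csf1r, with 266, 258 and 204 counts in ESC, then 97, 89 and 75 in neurons. Hmgxb3 opposite to it had 2, 1 and 2, then 0, 1 and 0, so here the marker was the higher. Fibroblast markers reached at most 0.967 CPM in ESC and 3.21 CPM in neurons, and early differentiation markers 0.967 and 0 CPM. The part of other cells in the results below was not tested.

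By the table's exon positions the pairs fell into 3 classes. In 160 pairs the exons of the os gene and the stem gene share bases (exon-sharing), over 6 to 3255 bases with a median of 254.5, which is a median of 15.1% of the os gene's exon length. Of these, 67 start head to head, 60 os genes lie within the stem gene's span, 25 pairs end tail to tail, and in 8 the stem gene lies within the os gene. In 80 pairs the spans overlap and no exonic base is shared (intron-only), and 63 of these os genes lie within the stem gene. In the last 49 pairs the spans do not overlap (apart). Of these, 38 start head to head at a median distance of 120.5 bases, and 11 end tail to tail at a median distance of 1898 bases.

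The classes differed in level. The median level per length over the 6 libraries, in CPM per kilobase of exon, was 19.1 for exon-sharing os genes, 1.91 for intron-only os genes and 0.20 for those apart from the stem. Their stem genes had medians of 0.60, 0.23 and 0.49 CPM per kilobase. The median listed level per length was thus higher for exon-sharing os genes than for their stem genes. If the table counts the opposite strand, these levels are of RNA from the other strand within the listed exons. The order of the genes themselves is then not known. Counts of at least 1 were found for 251 os genes, and 38 were at 0 in all 6 libraries, of which 8 were exon-sharing, 11 intron-only and 19 apart.

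**Figure D1:**
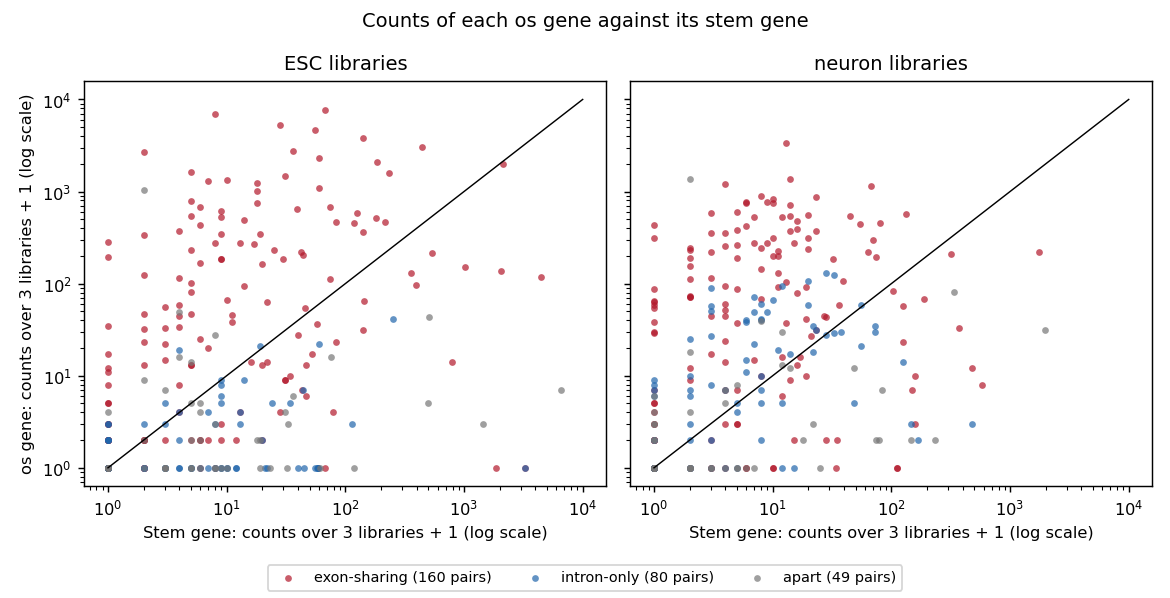
Counts of each os gene (vertical axis) against its stem gene (horizontal axis), summed over the 3 libraries of a group with 1 added, both axes logarithmic. Each point is 1 of 289 pairs, coloured by class, the line marks equal counts, and most of the 160 exon-sharing pairs that have many counts lie above it.

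Within pairs, most reads were listed under the os gene. Summed over all pairs, os genes took 69.3%, 71.0% and 69.4% of the pair counts in ESC. In neurons the shares were 77.6%, 78.5% and 77.7%. The means were 69.9% ± 0.92 and 77.9% ± 0.53 (SD, n = 3), and every neuron library lay above every ESC library. The stem genes held the other 30.1% and 22.1%. Which strand each share stands for depends on the strand setting, as above. An exact two-sided permutation test gave p = 0.1, the smallest that 3 against 3 samples allow. All os genes together made up 1.55% ± 0.044 of all counts in ESC and 2.04% ± 0.055 in neuron libraries, and all stem genes 0.666% and 0.577%.

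The share differed by class. Exon-sharing os genes held 77.4% ± 0.66 of their pairs' counts in ESC and 84.0% ± 0.62 in neurons. Intron-only os genes held 3.98% ± 0.40 in ESC and 53.8% ± 2.24 in neurons, and 14.9% ± 0.83 and 63.4% ± 1.05 without the pair of Far2os1, whose stem Far2 held most of the stem counts in ESC. Os genes apart from the stem held 11.6% ± 0.30 and 34.6% ± 2.13, most of it in Brip1os, and without that pair 2.20% and 8.08%. In each class the 2 groups did not overlap, with an exact permutation p of 0.1.

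**Figure D2:**
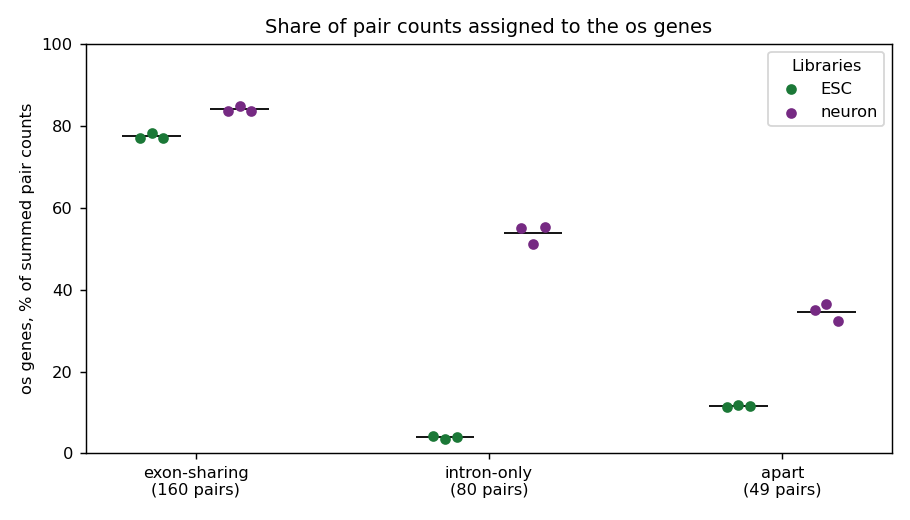
Share of the summed counts of os and stem genes that fell on the os genes, in percent, for each library (points) and as the group mean (bars), by class of pair. The exon-sharing class lies between 77.0% and 84.7% in every library, while the intron-only class lies at 3.53% to 4.31% in ESC and 51.2% to 55.2% in neurons.

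Single pairs were compared where os and stem gene together had at least 20 counts in every library, which left 59. The os gene had more counts than the stem in all 6 libraries in 41 pairs, the stem had more in all 6 in 11, and 7 were mixed. Among the 51 exon-sharing pairs of this group the os gene was higher in 40, and it held over 90% of the pair's counts in both groups in 25. Per kilobase of exon the os gene was higher in 44 of these 51 and the stem in 3. Only 2 intron-only pairs and 6 pairs apart from each other were this deep, and the os gene was higher in all libraries in 0 and 1 of them.

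The os gene with the highest mean level was Rbm3os (ENSMUSG00000055188.13, chrX:8011668-8014203, plus strand, GRCm39), whose stem Rbm3 encodes a cold-induced RNA-binding protein. It starts head to head with Rbm3 and shares 94 exonic bases with it, in the 5′ untranslated region as shown above. Rbm3os had 2932, 2217 and 2557 counts in the ESC libraries, then 193, 186 and 146 in the neuron libraries, and counts below are listed in the same order. Rbm3 itself had 27, 20 and 20 in ESC and 3, 3 and 5 in neurons. The os gene thus held 99.1% ± 0.074 of the pair in ESC and 97.9% ± 1.0 in neurons. Both fell in neurons, Rbm3os by 3.13 on the log2 scale (SE 0.11, adjusted p = 1.98e-25 by edgeR's quasi-likelihood test) and Rbm3 by 1.83 (SE 0.44, edgeR adjusted p = 0.000236).

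Tomm6os (chr17:47998535-48002008) starts head to head with Tomm6, a small subunit of the protein import complex of the outer mitochondrial membrane. It had 2606, 2224 and 2179 counts in ESC, then 287, 293 and 297 in neurons, against 5, 1 and 1 and 9, 5 and 8 for Tomm6. Its exons also lie opposite 1221 exonic bases of Prickle4 and 958 of Gm21981, which held at most 19 and 9 counts in a library. Tomm6os fell by 2.24 on the log2 scale (SE 0.11, edgeR adjusted p = 4.72e-21).

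Uchl1os (chr5:66783838-66833841), opposite the neuronal deubiquitinase gene Uchl1, was the most abundant os gene that rose. It had 668, 402 and 542 counts in ESC, then 1174, 1128 and 1092 in neurons, and every neuron library was above every ESC library before scaling. It rose by 1.84 on the log2 scale (SE 0.11, edgeR adjusted p = 3.66e-18). Uchl1, a gene known for very high expression in neurons, had 1, 0 and 3 counts in ESC, then 3, 2 and 7 in neurons, so that Uchl1os held 99.8% ± 0.28 of the pair in ESC and 99.6% ± 0.25 in neurons (SD, n = 3). With so few counts under Uchl1 itself in neurons, these reads may belong to either strand.

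Scpep1os (chr11:88796754-88826887) meets Scpep1, a serine carboxypeptidase gene, tail to tail. It had 2225, 1340 and 1686 counts in ESC, then 99, 79 and 67 in neurons, while Scpep1 had 14, 4 and 9 and then 0, 0 and 1. Scpep1os fell by 3.66 on the log2 scale (SE 0.13, edgeR adjusted p = 2.27e-25). The fall ran through all 3 neuron libraries, which lay far below the ESC range.

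The other highly counted os genes had the same imbalance towards the os side. Rsf1os2, opposite the chromatin remodelling gene Rsf1, had 1384 to 1753 counts in ESC and 88 to 153 in neurons, against 11 to 23 and 2 to 15 for Rsf1. Arf4os, opposite the Golgi traffic GTPase gene Arf4, had 909 to 1196 and 85 to 113 counts, against 129 to 177 and 19 to 25. Man2c1os, opposite the cytosolic mannosidase gene Man2c1, had 852 to 1026 and 129 to 166 counts, against 8 to 18 and 14 to 22. All of these os genes fell, with log2 fold changes of −2.90, −2.60 and −1.89 (edgeR adjusted p = 1.51e-21, 4.46e-21 and 2.37e-17). Ino80dos, opposite a gene of the INO80 chromatin remodelling complex, fell by 1.18 (edgeR adjusted p = 8.78e-12), as did Ino80d by 1.33 (adjusted p = 2.62e-05).

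Ube4bos1, Rab10os and Brip1os did not follow this downward direction. Ube4bos1, within the ubiquitin chain elongation gene Ube4b, had a mean of 660 CPM ± 41.3 (SD, n = 3) in ESC and 658 CPM ± 45.5 in neurons (edgeR adjusted p = 0.974). With library totals in place of TMM its log2 fold change was 0.73, and with a filter on a mean of 10 counts 0.36, each past the threshold. Rab10os, opposite the small GTPase gene Rab10, went from 462 CPM ± 3.86 to 555 CPM ± 93.5 with an edgeR adjusted p of 0.0345, and Rab10 fell by 1.04. This call was lost in 5 of 6 fits that leave out a library (all ESC libraries and neuron replicates 2 and 3; adjusted p = 0.0711 to 0.657). Brip1os starts 117 bases from the DNA helicase gene Brip1 and overlaps none of its exons. It had 396, 321 and 323 counts in ESC, then 492, 507 and 376 in neurons (log2 fold change 1.15, SE 0.12, edgeR adjusted p = 1.82e-11), while Brip1 had at most 1 count. Its exons lie opposite 512 exonic bases of Ints2 and 800 of Med13, both of which were counted at lower levels, at most 51 and 8 counts.

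**Figure D3:**
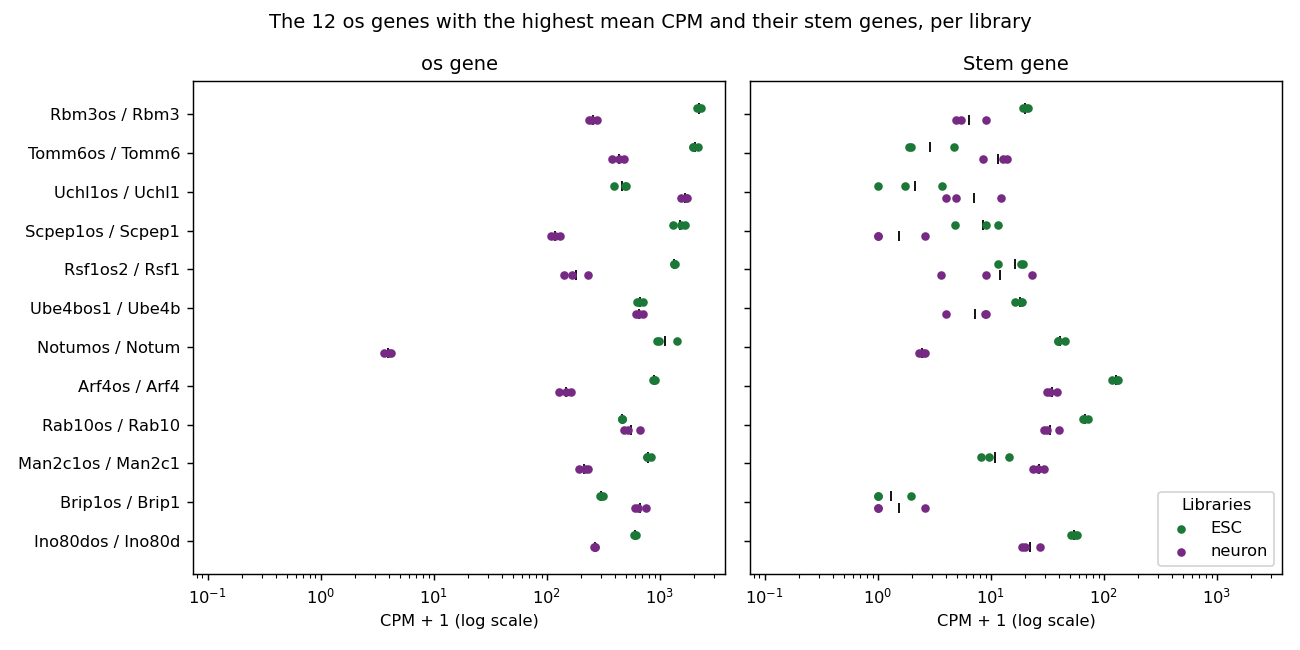
CPM plus 1 (log scale) of the 12 os genes with the highest mean level (left) and of their stem genes (right), in each ESC and neuron library (points), with group means as vertical ticks. All 12 os genes but Notumos lie above 100 CPM in either group, and Notumos drops to 2.93 CPM ± 0.30 (SD, n = 3) in neurons.

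In 11 deep pairs the stem gene was counted higher in every library. For 9 of them the stem gene shares exons with a further opposite-strand gene that is not its os gene, Far2 being the stem in 2 of these. This held for 7 of the 41 pairs in which the os gene was higher and 3 of the 7 mixed pairs. The groups also differ in class, as 5 of the 11 pairs and 1 of the 41 are of the apart class. The difference was not tested. Far2, a fatty acyl reductase gene, had 998 to 1186 counts in ESC and 139 to 171 in neurons and shares 837 bases with Ergic2, and its 2 os genes had at most 7 counts. Wdr83 had 645 to 725 and 175 to 208 counts and shares 128 bases with Dhps, while Wdr83os had 37 to 55 and 0 to 6. Cebpz and the protein-coding Cebpzos were close to even, with Cebpzos at 47.9% ± 1.5 of the pair in ESC and 39.8% ± 4.7 in neurons.

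Between ESC and neuron libraries most os genes that could be tested differed. Of 289 os genes 140 passed the filter on low counts, and edgeR called 131 at an adjusted p under 0.05, 86 higher and 45 lower in neurons. Over all 7150 tested genes 85.6% were called, 47.0% higher and 38.6% lower. The median log2 fold change was 1.63 over the tested os genes and 0.37 over all tested genes. Of the stem genes 61 were tested and 52 called, 23 higher and 29 lower, with a median of −0.51. With library totals in place of TMM the median of all genes moved by 0.73 and 94 os genes were called higher and 31 lower, so that the share of higher calls among os genes went from 65.6% to 75.2%. Over all genes 4050 were then called higher and 2136 lower, a share of higher calls of 65.5% against 54.9%.

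The filter asks for about 10 CPM in as many libraries as a group holds, which was 14 to 18 counts in an ESC library and 6 to 7 in a neuron library. Of the tested os genes 68 reached it in the neuron libraries alone, 14 in the ESC libraries alone and 57 in both. Over all tested genes these numbers were 2948, 1184 and 2851. A gene that passed through 1 group alone was selected for its counts in that group, which favours a call in that direction. Not every such gene was called. Arhgap27os1 had 18, 21 and 23 counts in ESC, then 12, 4 and 7 in neurons, and was not called. The numbers of calls above therefore describe the tested genes and support nothing more.

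**Figure D4:**
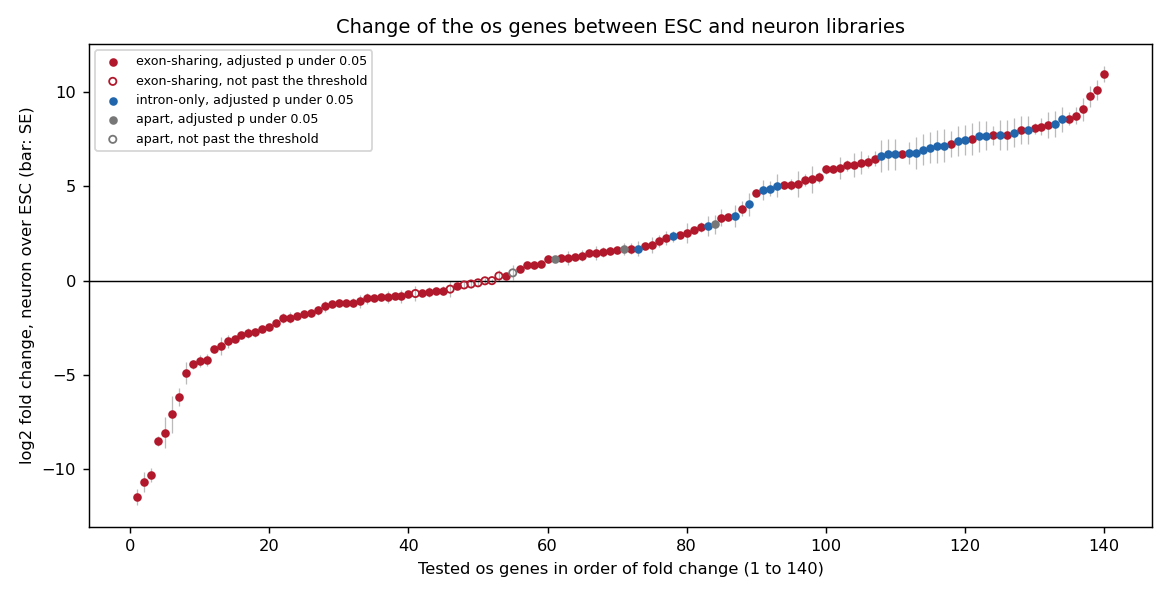
Log2 fold change, neuron over ESC, of the 140 tested os genes in rising order, with the standard error as a grey bar, coloured by class of pair. Filled points passed the threshold and open points did not, and all 26 intron-only os genes lie above 0.

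The 45 os genes called lower were all exon-sharing, which the filter favoured. All 26 tested intron-only os genes and 3 of the 4 tested apart from the stem had passed it through the neuron libraries alone. Without the filter 2 intron-only os genes and 2 apart from the stem were called lower. Galnt6os (ENSMUSG00000090062.3, chr15:100593654-100602777, plus strand), within the span of the O-glycosylation enzyme gene Galnt6, had 522, 409 and 418 counts in ESC, then 0 in every neuron library. It was at least 267-fold lower in neurons, counted against a floor of 3 counts over the group. Galnt6 had only 4, 2 and 3 counts in ESC, then 0 in neurons. Plet1os, whose span encloses the placenta-expressed gene Plet1, had 347, 190 and 254 counts in ESC, then 0 in neurons, at least 157-fold lower. Plet1 had 1 or 2 counts in each library.

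Notumos and Myadml2os lie next to each other on chromosome 11 (120549983-120552641 and 120538496-120547887) and fell together. Notum, the stem of the first, encodes a secreted esterase that inactivates Wnt proteins. Notumos had 1239, 1470 and 1087 counts in ESC, then 2 in all neuron libraries (log2 fold change −8.51, SE 0.26, edgeR adjusted p = 2.68e-23). Myadml2os had 890, 1058 and 759 counts in ESC, then 0, 0 and 1 in neurons. Both had their highest count in ESC replicate 2, the ESC library with the lowest total. Myadml2os shares 302 exonic bases with Myadml2 and 210 with Notum, and Notum itself had 51, 46 and 42 counts in ESC, then 1 in all neuron libraries.

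Adap2os and Pnpla1os fell with stem genes that held more counts than they did. Adap2os had 58, 35 and 35 counts in ESC, then 0 in neurons, against 155, 84 and 119 and then 0 for Adap2, which encodes a GTPase-activating protein of Arf proteins. Pnpla1os had 19, 24 and 21 counts in ESC, then 0 in neurons, against 63, 38 and 43 and then 2, 1 and 2 for Pnpla1, a lipase-like gene of the skin barrier. Nphs1os, within the nephrin gene Nphs1, had 47, 30 and 39 counts in ESC, then 0, 0 and 2 in neurons. Nphs1, a gene known from kidney podocytes, had 1803, 1207 and 1401 counts in ESC, then 2, 0 and 2 in neurons, so here the stem held the reads.

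The os genes that rose most were at or near 0 counts in ESC. Plxna4os3 (ENSMUSG00000086720.2, chr6:32280764-32293549, plus strand), within the semaphorin receptor gene Plxna4, was at 0 in ESC and had 205, 187 and 169 counts in neurons, at least 315-fold higher. Plxna4, which guides axons, had 1, 0 and 0 counts in ESC, then 5, 9 and 5 in neurons. Kcnmb4os1, within the gene of a neuronal subunit of calcium-activated potassium channels, had 0 in ESC and 93, 123 and 94 in neurons, at least 174-fold higher, while Kcnmb4 had 7, 8 and 4 in neurons. Prss23os, within the serine protease gene Prss23, had 0 in ESC and 50, 58 and 45 in neurons, and Prss23 had 1 count in all. Tmem150cos had 0, 1 and 0 counts in ESC, then 110, 156 and 110 in neurons, a ratio of 633 with a 95% counting interval of 113 to 2.5e+04 that reflects the single ESC count.

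Among stem genes that encode developmental transcription factors, 35 os genes were in the list, 28 had at least 1 count and 6 were tested. All 6 rose in neurons, as did the 5 tested stem genes of the list, where 47.0% of all tested genes were called higher. Of the 6, 5 passed the filter through the neuron libraries alone, which favoured a higher call, so the count supports nothing. Zeb2os (ENSMUSG00000052248.18, chr2:45000719-45004099, plus strand) had 1, 0 and 1 counts in ESC, then 219, 162 and 185 in neurons, a ratio of 476 with a 95% counting interval of 131 to 3.94e+03. Zeb2, a zinc finger repressor of neural development, had 0 in ESC and 57, 33 and 43 in neurons. The counts listed under both genes of this pair rose, and Zeb2os held 81.2% ± 1.9 of the pair's counts in neurons. Sox5os1 shares 1330 exonic bases with Sox5, a factor of deep-layer cortical neurons, and had 0 counts in ESC, then 92, 84 and 69 in neurons, while Sox5 had 2, 2 and 3.

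The further tested members of that list were smaller. Nkx2-2os had 0 counts in ESC, then 17, 17 and 25 in neurons, and Sox6os, in an intron of Sox6, had 0 in ESC and 15, 10 and 12 in neurons. Dlx6os2, opposite the interneuron factor gene Dlx6, had 0, 0 and 1 counts in ESC, then 27, 20 and 20 in neurons, and Dlx6 had 0, 3 and 1 and then 68, 55 and 65, so the stem was the higher of this pair. Zfhx2os overlaps the homeobox gene Zfhx2 over 3255 bases, the longest overlap of all pairs. Zfhx2os had 68, 89 and 48 counts in ESC, then 81, 59 and 79 in neurons (log2 fold change 0.83, SE 0.22, edgeR adjusted p = 0.00085), whereas Zfhx2 went from 15, 16 and 12 to 671, 474 and 599 counts (log2 fold change 6.08, SE 0.18, edgeR adjusted p = 8.96e-28). Zfhx2os therefore held 82.2% ± 2.4 of the pair in ESC and 11.2% ± 0.45 in neurons.

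Most of the other os genes of that list were near the limit of detection, and 7 of the 35 were at 0 in all libraries. Hoxa11os, Hoxb3os, Hoxb5os and Hnf4aos had 1 count each over all libraries, and Hnf1aos1 and Hnf1aos2 had at most 5 counts in an ESC library and 0 in neurons. Runx2os1, of the bone factor gene Runx2, had 0 counts in ESC, then 2, 1 and 2 in neurons. Hand2os1, next to the heart and limb factor gene Hand2, had 21, 7 and 6 counts in ESC, then 0 in neurons and did not pass the filter. Vax2os, of the eye factor gene Vax2, had 7, 5 and 6 counts in ESC, then 0 in neurons, and Evx1os had 1, 1 and 5 and then 0.

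A list of stem symbols for neuronal channel, receptor, synapse and cytoskeleton genes held 13 os genes, of which 9 were tested, and 8 rose and 1 fell, against 47.0% higher and 38.6% lower over all tested genes. All 8 that rose passed the filter through the neuron libraries alone, which favoured that direction, so the count supports nothing. Map2k3os, which was not tested, entered the list by the letters of its symbol, and its stem is a kinase gene outside these groups. Kcnd3os, of a voltage-gated potassium channel gene, had 0, 0 and 1 counts in ESC, then 78, 63 and 44 in neurons, and Kcnd3 rose with it from 1, 0 and 0 to 15, 8 and 8. Grip1os1, in an intron of the glutamate receptor scaffold gene Grip1, had 0 counts in ESC, then 24, 22 and 13 in neurons. Grip1, by contrast, had 27, 12 and 19 counts in ESC, then 2, 2 and 3 in neurons. Gad1os, at the gene of the GABA-synthesising enzyme, had 0, 2 and 1 counts in ESC, then 19, 7 and 8 in neurons. Kcnab3os was the exception, with 73, 58 and 53 counts in ESC, then 16, 14 and 12 in neurons (log2 fold change −1.37, SE 0.27, edgeR adjusted p = 1.48e-05), and Kcnab3, a potassium channel beta subunit gene, rose by 2.44 (edgeR adjusted p = 2.19e-05).

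Of 6 os genes whose stems belong to general cell machinery 3 were tested. Kdm6bos, opposite the histone H3 lysine 27 demethylase gene Kdm6b, had 177, 164 and 122 counts in ESC, then 270, 240 and 242 in neurons (log2 fold change 1.45, edgeR adjusted p = 7.75e-12). Kdm6b fell by 2.39, from 39, 27 and 16 to 2, 1 and 6 counts. Dnmt3aos, within the DNA methyltransferase gene Dnmt3a, rose from 0, 0 and 1 to 13, 10 and 7 counts. Cdk19os, opposite a kinase gene of the Mediator complex, fell by 2.75 (SE 0.23, edgeR adjusted p = 1.41e-13), from 209, 153 and 131 counts to 15, 15 and 13.

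More intron-only os genes were at 0 in the ESC libraries than in the neuron libraries. Of 80, 69 had at least 1 count, and 40 of these had 0 counts in all 3 ESC libraries against 9 with 0 in all 3 neuron libraries. The same numbers were 16 and 18 for the 152 exon-sharing os genes with counts, although the neuron libraries are the shallower ones. This split was not counted over all genes or over other genes that lie only opposite introns. All 26 intron-only os genes that passed the filter did so through the neuron libraries alone, and all 26 were called higher. Without the filter edgeR called 41 of 69 higher and 2 lower (Vax2os and Pla2g10os, the latter named after its values were seen), where over all 28820 genes with a count 6124 were called higher and 5638 lower. With a mean of at least 10 counts required, 8 of 8 were called higher.

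Of these 26 os genes 24 lie within the span of the stem gene. Plxna4os2 and Plxna4os1, in introns of Plxna4, had 36, 33 and 36 and 22, 21 and 15 counts in neurons, and Macrod2os1, in the macrodomain gene Macrod2, had 31, 32 and 25. Nrg3os, in the gene of the ErbB4 ligand neuregulin 3, had 23, 23 and 25 counts in neurons, and Nrg3 had 2 in each. Dnm3os, the host transcript of the microRNAs miR-199a and miR-214 in the dynamin gene Dnm3, had 28, 22 and 15, and Egfros, in the growth factor receptor gene Egfr, had 26, 11 and 19. All of these had 0 counts in each ESC library. They were at least 58.9-fold, 32.5-fold, 49.3-fold, 39.8-fold, 36.4-fold and 31.4-fold higher in neurons, in that order.

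A few intron-only os genes had counts in both groups. Sap30bpos, within the gene of a corepressor-binding protein, had 16, 6 and 18 counts in ESC, then 50, 33 and 39 in neurons and rose by 2.35 on the log2 scale (SE 0.30, edgeR adjusted p = 5.41e-09). Sap30bp fell by 2.20, from 107, 78 and 65 to 14, 9 and 9 counts, so that the os share of the pair went from 13.9% ± 7.3 to 79.3% ± 1.7. Lrp8os2, in the reelin receptor gene Lrp8, had 2, 0 and 5 counts in ESC, then 51, 36 and 44 in neurons. Lrp8 had 4, 0 and 4 and then 12, 3 and 12.

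Os and stem gene did not move in 1 common direction. Whether their directions differ from those of unrelated genes was not tested, and 47.0% of all tested genes were called higher and 38.6% lower. Os and stem gene were both tested in 45 pairs and both called in 36, of which 10 rose together and 12 fell together. In 9 the os gene rose and the stem fell, and in 5 the os gene fell and the stem rose. An example is Srrm4os, tail to tail with Srrm4, the gene of a neural splicing activator, over 68 shared bases. Srrm4os had 6, 1 and 6 counts in ESC, then 127, 122 and 109 in neurons (log2 fold change 5.49, SE 0.29, edgeR adjusted p = 1.55e-19). Srrm4 had 296, 219 and 272 counts in ESC, then 1 in all neuron libraries (log2 fold change −7.16, SE 0.34, edgeR adjusted p = 2.2e-21), and the listed os share went from 1.53% ± 0.94 to 99.2% ± 0.067. If the table counts the opposite strand, each direction is of RNA from the other strand within the exons of the gene listed. The directions of Srrm4os and Srrm4 themselves are then not known.

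Acss2os rose by 1.14 on the log2 scale from 72, 27 and 52 counts to 61, 62 and 72, and Acss2, an acetyl-CoA synthetase gene, fell by 3.03 from 405, 270 and 337 to 27, 18 and 28. Prkag2os1 rose from 14, 7 and 9 to 33, 22 and 23 counts, and Prkag2, an AMP-activated kinase subunit gene, fell from 56, 45 and 40 to 6, 3 and 6. Frs3os passed no threshold (edgeR adjusted p = 0.442), with 95, 52 and 69 counts in ESC, then 38, 38 and 36 in neurons. Frs3, a docking protein gene of fibroblast growth factor receptors, fell from 194, 156 and 182 counts to 1, 0 and 0.

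Some os genes share a stem. The 30 stems with several os genes hold 71 of them, and 14 stems had at least 2 called. In 13 of these all called os genes had 1 direction. In 10 of the 14 all called os genes had passed the filter through the neuron libraries alone, which favoured a higher call. Only at Chn1 and Usp46 had no called os gene passed in that way. All 3 os genes of Plxna4 and all 3 of Grip1 rose, both of Chn1, the gene of a Rac-inactivating protein, rose, and both of Usp46, a deubiquitinase gene, fell. The os genes of Usp46 fell by 0.61 and 0.70, and with library totals in place of TMM their log2 fold changes were 0.12 and 0.03. The call of Usp46os1 was lost without neuron replicate 1 (edgeR adjusted p = 0.239) and without neuron replicate 3 (edgeR adjusted p = 0.102). The exception was Rsf1, where Rsf1os2 fell as described and Rsf1os1, in an intron, went from 0 counts in ESC to 10, 13 and 7 in neurons.

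Of the 11 protein-coding os genes 6 were tested. Of these 2 rose, Cdiptos among them, Cebpzos, Fancd2os and Wdr83os fell, and Slc7a6os passed no threshold. Among all tested genes 47.0% were called higher and 38.6% lower. Cebpzos had 778, 586 and 602 counts in ESC, then 64, 81 and 65 in neurons (log2 fold change −2.47, SE 0.14, edgeR adjusted p = 1.17e-18). Its stem Cebpz had 851, 601 and 694 and then 122, 111 and 87 and fell by 1.99. Fancd2os, which ends against the DNA repair gene Fancd2, had 123, 111 and 114 counts in ESC, then 4, 3 and 4 in neurons, while Fancd2 had 6, 4 and 8 and then 0, 1 and 0.

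Exon-sharing os genes were also counted by arrangement. Of 32 tested os genes that start head to head with the stem, 11 rose and 20 fell, with a median log2 fold change of −0.93. Of 52 within the stem's span 32 rose and 13 fell, with a median of 1.58. Of 20 that end tail to tail 12 rose and 8 fell, and of 6 that enclose the stem 2 rose and 4 fell. Over all tested genes 47.0% were called higher and 38.6% lower. Of the 110 tested exon-sharing os genes 39 had passed the filter through the neuron libraries alone and 14 through the ESC libraries alone. Passing through 1 group alone favoured a call in the direction of that group. The difference between arrangements was not tested.

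Start regions were compared in RefSeq promoter windows of 300 bases, 250 before to 50 after the start (GRCm38.p6), which matched 173 os genes and 198 stem genes. Os genes that start head to head had a median of 10.5 CpG dinucleotides per window, those within the stem's span 4, the stems 17 and all RefSeq promoters a median of 7. The TATA core (TATAAA), the CCAAT box and the GC box (GGGCGG) were searched on both strands. TATAAA was found in 7.73% of the os windows against 13.6% of all promoters, CCAAT in 33.3% against 37.4%, and GGGCGG in 27.5% against 35.7%. By arrangement, GGGCGG was found in 41.2% of head-to-head os windows and 10.96% of those within the stem's span, and by class in 45.0% of the windows of os genes apart from the stem. The windows of os gene and stem overlapped in 30 pairs, of which 14 were apart and head to head, and 12 exon-sharing and head to head. The windows of Rbm3os (chrX:8145177-8145476, plus strand) and Galnt6os (chr15:100695482-100695781, plus strand) are shown as a CpG-rich and a CpG-poor start of os genes that fell, with 27 and 2 CpG. Capitals mark the motif matches, GGGCGG on the minus strand in the first and CCAAT on the minus strand in the second.
Rbm3os: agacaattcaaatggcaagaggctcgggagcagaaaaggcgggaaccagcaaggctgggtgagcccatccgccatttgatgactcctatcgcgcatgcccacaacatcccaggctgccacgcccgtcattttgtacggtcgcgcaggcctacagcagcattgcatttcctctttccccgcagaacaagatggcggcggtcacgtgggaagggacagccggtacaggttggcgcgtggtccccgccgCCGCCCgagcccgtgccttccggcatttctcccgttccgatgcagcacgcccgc
Galnt6os: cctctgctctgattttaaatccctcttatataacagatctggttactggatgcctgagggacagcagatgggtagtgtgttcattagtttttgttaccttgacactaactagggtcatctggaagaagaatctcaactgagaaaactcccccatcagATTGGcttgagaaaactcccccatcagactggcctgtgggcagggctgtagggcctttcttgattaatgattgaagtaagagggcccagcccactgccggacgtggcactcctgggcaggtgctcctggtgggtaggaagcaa
A match is a description of these letters only, and 300 bases can miss a distant element.

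Other opposite-strand genes in the table give the setting. Of 2707 further genes of the antisense class 1298 were tested and 1146 called, 640 higher and 506 lower, with a median log2 fold change of 0.44. Of 9389 further genes of any kind that share exonic bases with an opposite-strand gene 4562 were tested, 1866 higher and 1985 lower, with a median of −0.05. A related list of 8 symbols ending in as or ot held 2 tested genes. Of these Dlx1as, antisense to the interneuron factor gene Dlx1, rose from 332, 251 and 297 counts to 902, 625 and 646 (log2 fold change 2.05, edgeR adjusted p = 7.05e-19), and Hras, which the naming rule caught by its letters and which is no antisense gene, fell. Kcnq1ot1, the imprinted antisense RNA of Kcnq1, had 1 to 4 counts in each library, and Sox2ot had 3 in each ESC and 4 in each neuron library.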

How the data were processed

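RNA-seq counts per gene were analysed for 3 ESC and 3 neuron samples, grouped by the labels. The authors deposited whole-number read counts per gene with exon positions, strand and length. The submitters' processing notes name cutadapt, STAR, RSEM and the GRCm39 (mm39) build, with no role or version; the strand setting is not given in the sources used here. Symbols came from GENCODE M21 by gene ID (91.3% matched), and promoter windows from RefSeq (GRCm38.p6).

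Counts were filtered with filterByExpr, scaled with TMM and tested with edgeR's quasi-likelihood test (edgeR 4.0.16, R 4.3.3) over all genes, with Benjamini-Hochberg adjustment and a threshold of 0.05. CPM uses the TMM-scaled library total. Exon overlaps came from bedtools 2.31.1. Whether reads were counted on the opposite strand was not tested. If they were, a count listed for an os gene is of RNA from the stem's strand within the os gene's exons only. Stem RNA outside those exons would be in neither count of the pair, so exchanging os and stem values would not recover it. A fold against a group at 0 uses a floor of 3 counts over the group; intervals are 95% and cover counting error only. Totals ran from 513425 to 1775055 counts. On simulated data with 200 genes changed 4-fold among 6015 tested, 82% were recovered, and 7.34% of the calls were unchanged genes. In the real data 85.6% of the tested genes were called, so these rates need not hold there.

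The os genes and the gene lists were chosen with earlier results of these data known. Named are the 12 os genes with the highest mean CPM, and among those called the 6 that rose most and the 6 that fell most, other tested os genes, those of developmental transcription factors with a count, and their stems. Some values are not reported here. Alternatives were library totals, DESeq2 1.42.0 (its size factors and its Wald test), limma-voom (limma 3.58.1), other filters, a replicate block, and each library left out. The replicate numbers do not pair the samples (correlation of deviations −0.022 to 0.019 for equal numbers).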

Additional observations from a re-analysis of the deposited data

How the results depend on the processing

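With no filter on low counts, 11762 of all genes were called (6124 higher, 5638 lower) and 99 stem genes (46 higher, 53 lower). Among genes with no exon facing another gene's exon, 1950 of 2265 tested were called (1067 higher, 883 lower). With them were 24 of 25 tested os genes (24 higher, 0 lower) and 7 stem genes (5 higher, 2 lower). This setting leaves out the exon-sharing os genes, which hold all 45 lower calls of the main fit. All 26 intron-only os genes tested in the main fit had passed its filter through the neuron libraries alone. The os share of all pair counts was 89.4% in ESC and 92.2% in neurons per kilobase of exon, 74.7% and 81.5% with 1 pair of many counts left out, and 77.4% and 84.0% over exon-sharing pairs. With library totals in place of TMM the log2 fold change turned positive for Ube4bos1 (0.73), Dhrs13os (0.16), Far1os (0.50), Frmd8os (0.19), Frs3os (0.55), Tbc1d22bos (0.61), Tnk2os (0.72), Ube4bos3 (0.46), Usp46os1 (0.12), Usp46os2 (0.027) and Zbtb11os1 (0.067). With a mean of 10 counts required it turned positive for Ube4bos1 (0.36), Tnk2os (0.35) and Ube4bos3 (0.089). The cause was not tested. Leaving out 1 library at a time gave 5430 to 7353 called genes (3055 to 3879 higher, 2343 to 3474 lower), 126 to 136 os genes (82 to 89 higher, 44 to 47 lower), 42 to 64 stem genes (18 to 28 higher, 22 to 38 lower), and os shares of 69.4% to 70.2% in ESC and 77.6% to 78.1% in neurons. Calls of Ccdc142os, Frmd8os, Rab10os, Ube4bos3, Usp46os1 and Zfp335os were lost in at least 1 of these fits. With the replicate number as a block, all 131 called os genes remained called (86 higher, 45 lower), with 6088 genes and 52 stem genes called. Of the 131, DESeq2's Wald test called 126 and limma-voom 127 in the same direction. Without the pair of Far2os1, an alternative chosen after seeing the data like that without Brip1os, the intron-only os share was 14.9% in ESC and 63.4% in neurons. Counts below about 3 per library are not resolved at this depth.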
